A study of Ovis aries with 6 samples.

Results

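Among the short RNAs of sheep longissimus muscle, 6 predicted miRNA loci carried sequences that an earlier look at these data had assigned to transfer RNAs (tRNAs), the adaptor RNAs of translation. These loci were taken by their names in the deposited counts: chr19_35458_mature, chr19_36159_mature, chr2_4784_mature and chr10_22638_mature for tRNA-Glu, chr5_14524_mature for tRNA-His and chr20_37950_mature for a sequence like tRNA-Ser, given below without the ending. The tRNA names are those of this assignment, and no tRNA sequence was compared here to test them. They are 6 of 11161 listed sequences, and 6 of 7498 predicted loci with no known miRNA name. They had been picked by sequence among the loci with enough counts to be tested, with their levels and breed differences already known, so that all values here describe them and are not independent evidence. The samples were longissimus muscle of Qianhua Mutton Merino (QHMM, 3 libraries) and Small Tail Han (STH, 3 libraries) sheep, both under natural conditions. The labels give no age, sex or treatment beyond the breed, and no animal is named for a library, so that p-values measure only the spread between these libraries.

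A tRNA is read from its 5′ end through the D-arm and the anticodon loop to the T-arm and the CCA end that carries the amino acid. Nucleases such as angiogenin, which cuts in the anticodon loop under stress, and Dicer can release stable pieces, called tRNA fragments, and some of them bind Argonaute proteins as miRNAs do. Pieces of tRNA-Glu and tRNA-Gly are often abundant in small RNA libraries of mammals, and 5′ pieces of tRNA-His were described in human tumour cells that depend on sex hormones. Programs that predict miRNA genes can list such pieces as hairpin arms, since tRNA genes and repeats derived from tRNAs stand at many places in a genome. In ruminants the repeat Bov-tA descends from tRNA-Glu. The RefSeq annotation of the sheep assembly ARS-UI_Ramb_v3.0 names 2451 tRNA genes, of which 197 are for tRNA-Glu, 38 for tRNA-His and 313 for tRNA-Ser.

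The sequences are shown because near-identical rows can hold the same reads. Capitals mark the longest run found in at least 5 of the 6 loci. Sequences run 5′ to 3′ as deposited, with the chromosome of the locus in the build Oar_v3.1 in its name:
chr19_35458 (tRNA-Glu): tccctggtggtctAGTGGTTAg
chr19_36159 (tRNA-Glu): tccctgtggtctAGTGGTTAg
chr2_4784 (tRNA-Glu): tccccggtggtctAGTGGTTAg
chr10_22638 (tRNA-Glu): tccctggtggtctatgg
chr5_14524 (tRNA-His): AGTGGTTAgtactctgc
chr20_37950 (tRNA-Ser like): gtagtcgtggccgAGTGGTTAa

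The loci were 17 to 22 nt long. In chr19_35458, chr2_4784 and chr20_37950 the 8-nt run AGTGGTTA stood at positions 14 to 21, counted from the 5′ end, and in chr5_14524 it opened the sequence at positions 1 to 8. chr10_22638, the shortest tRNA-Glu sequence, did not hold it. Among all listed sequences, 10 of 11161 (0.0896%) held AGTGGTTA, 5 of them the loci described here. Since the loci were picked by sequence, the shared run restates that choice and supports nothing about their origin. By what is generally known of mammalian tRNAs, such a run stands in the D-arm, the 22-nt sequences named for tRNA-Glu and tRNA-Ser would start at the 5′ end of the tRNA, and the sequence named for tRNA-His would start inside the D-arm. These places were not tested here, and neither was it tested whether the reads came from tRNAs or from repeats derived from them.

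Of the tRNA-Glu loci, 3 were close copies of each other. chr2_4784 differed from chr19_35458 by T5C alone, with positions counted from the 5′ end and the base of chr19_35458 first. chr19_36159 was 1 nt shorter than chr19_35458 and otherwise the same, with the missing base in a run of G at positions 6 to 7. chr10_22638 shared the first 14 nt of chr19_35458 but not its 3′ end, and was 5 changes away from it. The tRNA-His sequence shared 9 nt and the tRNA-Ser sequence 8 nt with chr19_35458.

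Counts were compared as CPM, the share of a count in the total over all miRNA names of its library scaled to 1e6. This total ran from 5572866 to 7546761 in QHMM and from 6172847 to 7930206 in STH. It takes only the row with the most counts of each name, and was below the total over all rows in every library. Together the loci had 1508 to 5554 CPM in QHMM and 5340 to 6020 CPM in STH, a share of 0.151% to 0.602% of this total over names. One sequence made up most of this. chr19_35458 held between 87.8% and 95.2% of the counts of the 6 loci in each library.

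chr19_35458, named for tRNA-Glu, stood in 34th place among 10430 names with a mean of 4150 CPM, or 2997 CPM against the total over all rows. It had 39105, 7635 and 17246 counts in the QHMM libraries (replicates 1, 2 and 3), against 39562, 31373 and 43981 counts in the STH libraries. In CPM this was 5182, 1370 and 2317 in QHMM, against 5404, 5082 and 5546 in STH. The STH libraries lay within 1.09-fold of each other, while the QHMM libraries spread over 3.78-fold. QHMM replicate 1 stood at the STH level, and QHMM replicates 2 and 3 were below every STH library. The means were 2956 ± 1985 CPM in QHMM and 5344 ± 237 CPM in STH (SD, n = 3 each).

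chr2_4784, the tRNA-Glu copy with T5C, was far lower at a mean of 137 CPM. It had 158, 48.6 and 121 CPM in QHMM, against 225, 80.2 and 191 CPM in STH. The breeds overlapped, and replicate 2 was the lowest library of each breed. chr19_36159, the copy lacking 1 base, had 124, 37.9 and 74.7 CPM in QHMM, against 197, 77.4 and 162 CPM in STH, the same order of libraries within each breed. In every library chr19_36159 was below chr2_4784, at 61.5% to 78.7% of it in QHMM and 84.6% to 96.6% of it in STH. The breeds did not overlap in this ratio. It lay outside the planned ratios, which were all to chr19_35458, and it was not tested. How often other pairs of rows separate the breeds was not counted. Over the 6 libraries the log2 CPM of these copies had a Pearson r of 0.97 with each other, and of 0.76 for chr2_4784 and 0.87 for chr19_36159 with chr19_35458. These 3 sequences can hold the same reads, and r over 6 libraries is given as a description only.

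chr10_22638, the 17-nt tRNA-Glu sequence, had few counts. There were 37, 4 and 13 counts in QHMM, against 14, 21 and 57 counts in STH. The exact Poisson 95% interval of the count of 4 in QHMM replicate 2 ran from 1.09 to 10.2 counts, and it covers counting error only. The CPM were 4.90, 0.718 and 1.75 in QHMM, against 1.91, 3.40 and 7.19 in STH, and the highest library of each breed lay above the lowest of the other. This locus reached the level of the low-count filter (1.35 CPM) in 2 QHMM libraries and in 3 STH libraries. The other 5 loci reached it in every library.

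chr5_14524, named for tRNA-His, was the locus whose breeds did not overlap. It had 66, 29 and 69 counts in QHMM, against 254, 152 and 156 counts in STH. This was 8.75, 5.20 and 9.27 CPM in QHMM, against 34.7, 24.6 and 19.7 CPM in STH. Every QHMM library lay below every STH library, with 7.74 ± 2.21 CPM in QHMM and 26.3 ± 7.65 CPM in STH (SD, n = 3 each), a ratio of the means of 0.294 for QHMM over STH. Within a breed the highest library was 1.78-fold above the lowest in QHMM and 1.76-fold in STH.

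chr20_37950, the tRNA-Ser like locus, had 583, 256 and 859 counts in QHMM, against 922, 442 and 751 counts in STH. The CPM were 77.3, 45.9 and 115 in QHMM and 126, 71.6 and 94.7 in STH. The libraries of the breeds were interleaved, and replicate 2 was again the lowest of each breed. In mean CPM the order of the loci was chr19_35458, chr2_4784, chr19_36159, chr20_37950 (88.5 CPM), chr5_14524 (17.0 CPM) and chr10_22638 (3.31 CPM). chr19_35458 lay above every other locus in each library. chr2_4784, chr19_36159 and chr20_37950 differed in their means by less than the SD over the 6 libraries of chr2_4784, 66.8 CPM. This SD is a spread between libraries, and within each library chr2_4784 lay above both chr19_36159 and chr20_37950. The order of chr19_36159 and chr20_37950 changed between libraries.

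**Figure D1:**
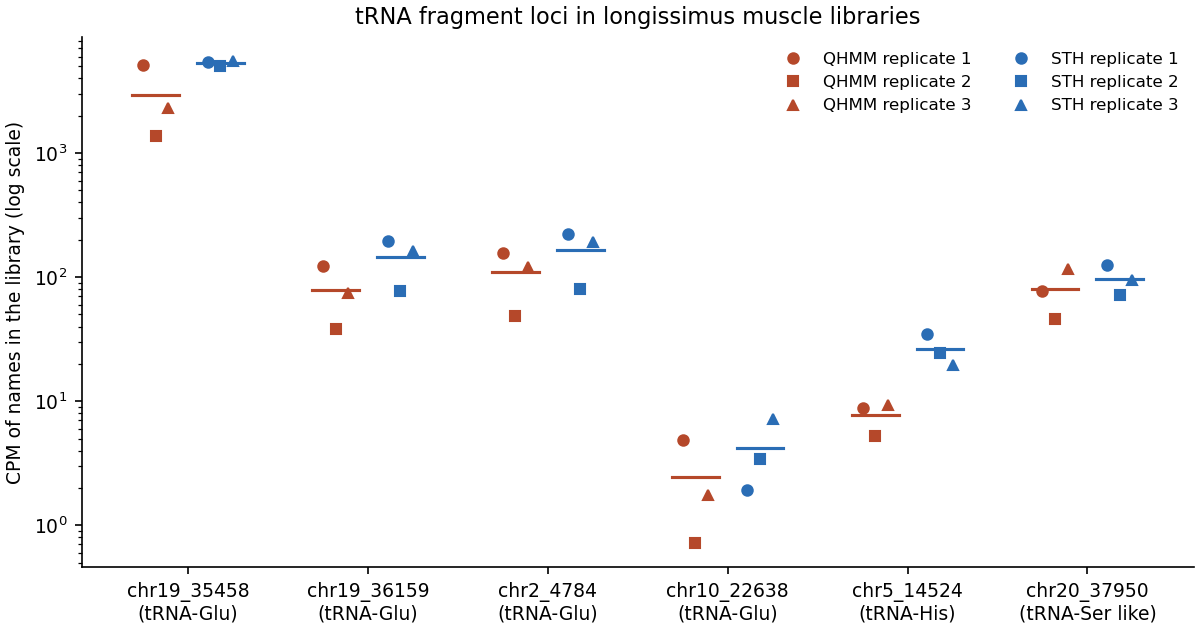
CPM (log scale) of the 6 tRNA fragment loci in each library, with QHMM in red to the left and STH in blue to the right. Symbols give the replicate number and horizontal lines the mean of 3 libraries. The QHMM libraries of chr5_14524 sit at 5.20 to 9.27 CPM, below the STH libraries at 19.7 to 34.7 CPM, while the breeds overlap at the other 5 loci.

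Whether the breeds differ at these loci is the question the samples allow. Over the 1274 names tested with edgeR, 2.20% differed between the breeds at an adjusted p under 0.05, 1.88% with QHMM lower and 0.314% with QHMM higher. Of the 6 loci, 1 passed, the tRNA-His locus chr5_14524. It fell to 7.74 CPM in QHMM, against 26.3 CPM in STH. Its log2 fold change, QHMM over STH, was -1.78 ± 0.34 (standard error), and its adjusted p over all names was 0.0147 in the quasi-likelihood test of edgeR. The adjusted p was 0.0576 without QHMM replicate 2, so that the call was lost without the library in which the locus was lowest. QHMM replicate 2 was the lowest library at all 6 loci. It also had the smallest total over names (5572866) and the fewest listed sequences with a count (4661). The part of these values in the call was not tested. Over all alternatives run the adjusted p of chr5_14524 lay between 0.000265, with DESeq2, and 0.0576. The groups of 8.71% of all names did not overlap with QHMM lower, as they did not for 1 of the 6 loci. An unadjusted p under 0.05 with QHMM lower was reached by 7.61% of all names and by 3 of the 6 loci.

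The other loci did not pass. The log2 fold changes were -0.92 for chr19_35458 (standard error 0.35, adjusted p = 0.268 from edgeR) and -0.92 for chr19_36159 (standard error 0.39, adjusted p = 0.334). chr10_22638 had -0.79 (standard error 0.60), chr2_4784 had -0.63 (standard error 0.41) and chr20_37950 had -0.30 (standard error 0.34), with adjusted p from 0.542 to 0.731. All 6 values were negative, as were those of 47.7% of all names tested. Their median was -0.85, beside 0.03 for all names. Since 3 of the tRNA-Glu loci are near-identical and can hold the same reads, these are not 6 independent results.

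The result for chr19_35458 turned on single QHMM libraries. Without QHMM replicate 1, in which chr19_35458 had 5182 CPM, its log2 fold change was -1.54 with an adjusted p of 0.00757 (edgeR), and without QHMM replicate 2 it was -0.62 with an adjusted p of 0.363.

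**Figure D2:**
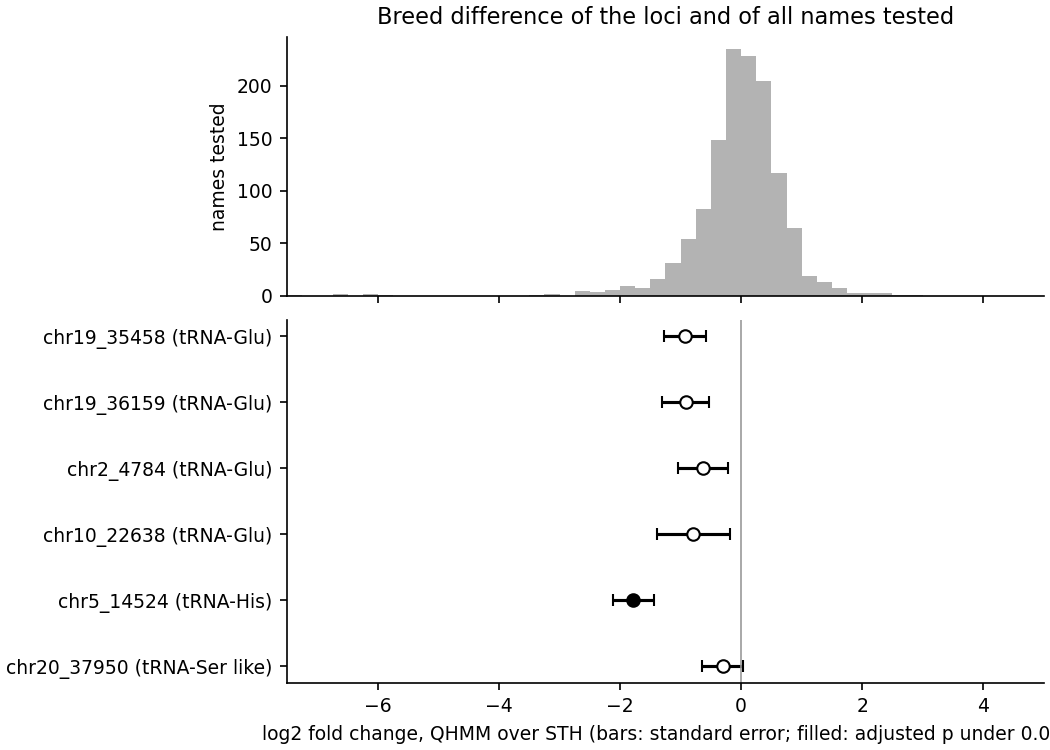
Upper panel, number of names by log2 fold change, QHMM over STH, for the 1274 names tested. Lower panel, the 6 loci with their standard errors, filled where the adjusted p is under 0.05. All loci lie left of 0, and chr5_14524 at -1.78 is the filled point.

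Other values of the libraries moved with the breeds. At least 1 count was found for 5207, 4661 and 5544 of the listed sequences in QHMM and for 5742, 5865 and 7134 in STH, with no overlap. The summed level of the leukocyte markers miR-142, miR-223 and miR-150 (3 of 3 detected) was 1765 to 1942 CPM in QHMM and 1165 to 1425 CPM in STH. The markers in this sum went both ways. The log2 fold change was 1.03 for miR-142-3p, 0.71 for miR-142-5p and 0.29 for miR-150, against -0.23 for miR-223-3p and -0.25 for miR-223-5p. None of them passed (adjusted p = 0.0796 to 0.822 from edgeR). The red blood cell markers miR-451, miR-144 and miR-486 (3 of 3 detected) summed to 18967 to 84308 CPM in QHMM and 7299 to 13838 CPM in STH, with the highest value in QHMM replicate 3. Muscle fibre markers (5 of 5 detected, miR-1 among them) took 518660 to 547198 CPM in QHMM and 451046 to 536886 CPM in STH, as the label of the tissue says. The names in this sum went both ways too. miR-499-3p (log2 fold change 1.35) and miR-208b-3p (1.27) passed with QHMM higher (adjusted p = 0.0419 for both from edgeR). Against this, miR-206-3p had -0.27 and miR-1-3p -0.58, and neither passed (adjusted p = 0.582 and 0.507). Vessel wall markers (3 of 3) had 48039 to 76650 CPM in QHMM and 68042 to 84381 CPM in STH, and epithelial markers (6 of 6) 4.49 to 32.1 CPM in QHMM and 4.05 to 21.0 CPM in STH. No marker name was at 0 in every library. The part of these values in the difference of chr5_14524 was not tested. In tissue libraries fewer cells of a type and less RNA per cell cannot be told apart. With the libraries scaled by their muscle fibre miRNAs, an alternative chosen after the data were seen, chr5_14524 had a log2 fold change of -1.87 and an adjusted p of 0.0285 (edgeR).

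Within a library, the loci were set against chr19_35458, which needs no scaling between libraries. chr5_14524 had 0.169%, 0.380% and 0.400% of its counts in QHMM, against 0.642%, 0.484% and 0.355% in STH. The libraries overlapped here, with QHMM replicates 2 and 3 above STH replicate 3, and the log2 ratio differed by -0.68, QHMM minus STH (exact permutation test, two-sided, p = 0.30, adjusted 0.75 over 5 ratios, where 3 against 3 allow no p below 0.10). It was thus not shown that chr5_14524 differed from chr19_35458 in its breed difference. chr20_37950 stood at 1.49%, 3.35% and 4.98% of chr19_35458 in QHMM, against 2.33%, 1.41% and 1.71% in STH, a difference of 0.72 in the log2 ratio (exact permutation p = 0.30).

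The tRNA-Glu copies kept no constant proportion either. chr2_4784 had 3.04% to 5.24% of the counts of chr19_35458 in QHMM and 1.58% to 4.16% in STH, and chr19_36159 had 2.39% to 3.22% in QHMM and 1.52% to 3.65% in STH. For both of them the lowest share was in STH replicate 2, where chr19_35458 itself was not low. For chr10_22638 it was 0.0524% to 0.0946% in QHMM and 0.0354% to 0.130% in STH. None of these log2 ratios to chr19_35458 separated the breeds (exact permutation p = 0.50 to 0.90). Ion Proton sequencing reads the length of a run of 1 base from the strength of a signal and can miscount it, and chr19_36159 differs from chr19_35458 in such a run. How many of its counts were misread copies of chr19_35458 was not tested.

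**Figure D3:**
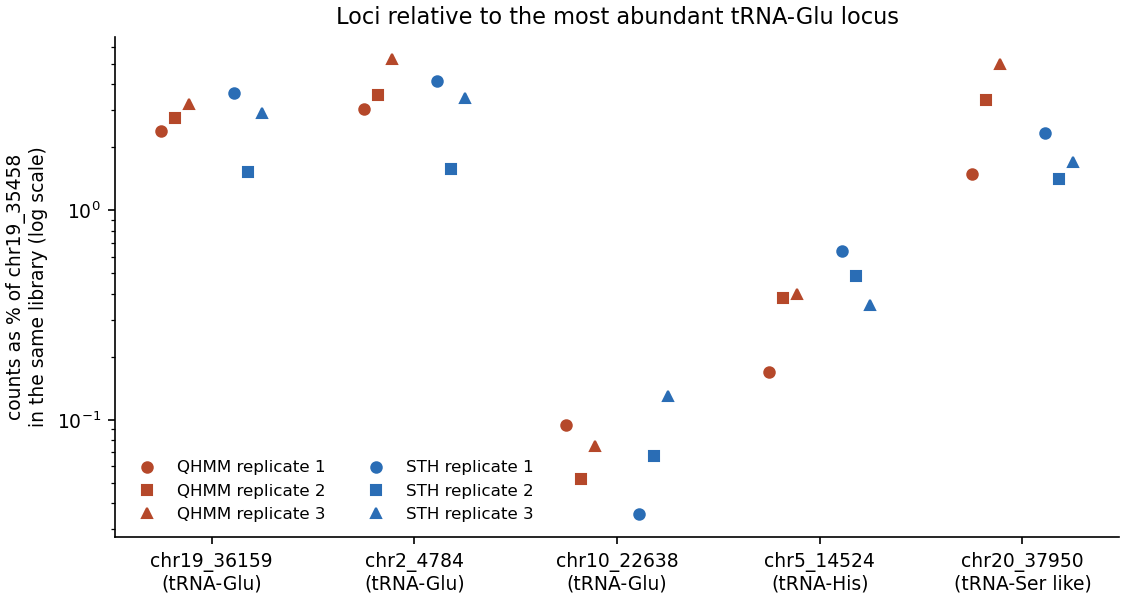
Counts of 5 loci as a percentage of the counts of chr19_35458 in the same library (log scale), QHMM in red to the left and STH in blue to the right, with symbols for the replicates. The breeds overlap at every locus, for chr5_14524 with 0.169% to 0.400% in QHMM and 0.355% to 0.642% in STH.

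Another abundant row of these libraries, chr8_19812_mature, had been assigned by its sequence to tRNA-Gly, and it was set beside chr19_35458 after the values were seen. It was itself lower in QHMM, with a log2 fold change of -1.76 (adjusted p = 0.000158 from edgeR), and the ratio to it holds this difference too. chr19_35458 had 79.9%, 26.2% and 46.6% of its counts in QHMM, against 25.9%, 28.9% and 31.2% in STH. The STH libraries were close to each other, QHMM replicate 2 lay among them, and QHMM replicates 1 and 3 lay above them. The log2 ratio differed by 0.69, QHMM minus STH (exact permutation test, two-sided, p = 0.30).

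Each of these sequences is listed as the mature arm of a predicted hairpin, and the table also holds the other arm. In a miRNA hairpin both arms are cut out together as a duplex, and one of them is usually kept. The other arm of chr19_35458 had 10 counts over the 6 libraries, against 178902 for the listed mature arm, a ratio of 17890. The ratio was 274 for chr2_4784 and 196 for chr19_36159, with 22 and 25 counts on the other arm. It was lower for chr20_37950 (12.3, with 310 counts on the other arm), chr10_22638 (7.30, with 20 counts) and chr5_14524 (4.08, with 178 counts).

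For the tRNA-His locus the other arm is listed under the same predicted hairpin. Whether both rows come from the same RNA was not tested. This other arm had 29, 17 and 36 counts in QHMM, against 22, 18 and 56 counts in STH, and its breeds overlapped. In an edgeR fit over all rows it had -0.15 on the log2 scale, with a standard error of 0.42 and an adjusted p of 0.905. The other arm of chr20_37950 had 49, 27 and 27 counts in QHMM, against 55, 63 and 89 counts in STH. There every QHMM library had fewer counts than every STH library, in counts not scaled for depth. Of all names tested, 8.71% did not overlap in CPM with QHMM lower. The log2 fold change of this other arm, -0.97, did not pass (standard error 0.35, adjusted p = 0.240 from edgeR). The other arms of the tRNA-Glu loci had 0 to 12 counts per library and did not reach the filter.

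**Figure D4:**
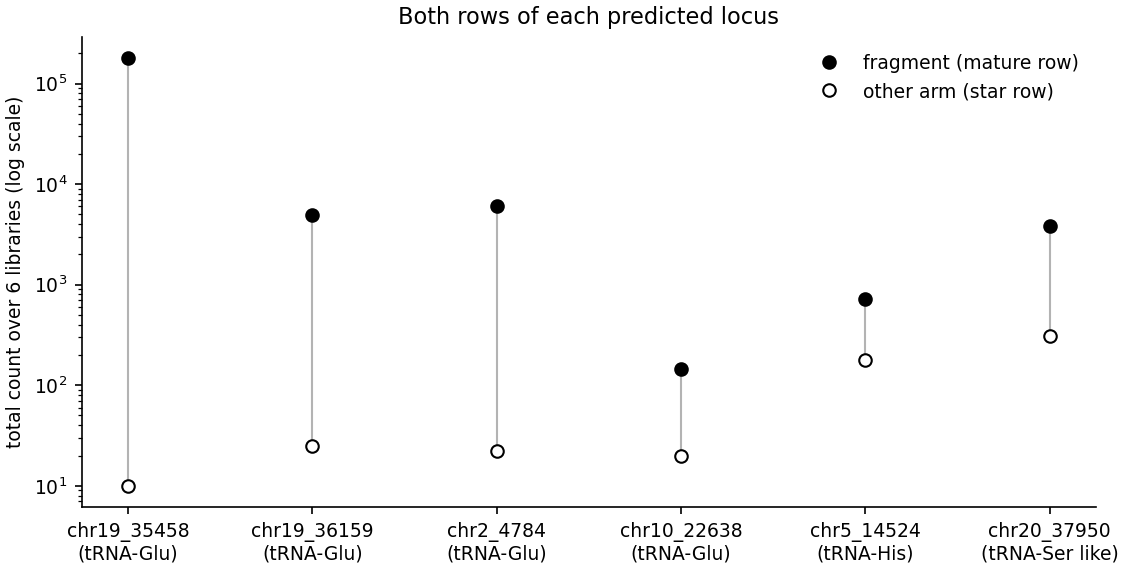
Total counts over 6 libraries (log scale) of the fragment (filled) and of the other arm (open) of each predicted locus, joined by a line. The gap is widest at chr19_35458, with 178902 against 10 counts, and narrowest at chr5_14524, with 726 against 178.

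The other arms at chr19_35458 and chr19_36159 are shown because they too were near copies, with a shared run of 15 nt in capitals:
chr19_35458, other arm: tCAATCCCTGGTCAGGaaa
chr19_36159, other arm: CAATCCCTGGTCAGGgat

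The 2 loci on chromosome 19 were near copies on both arms. The other pairs of other arms shared at most 7 nt. As calculated with RNAduplex, the duplex of both arms had a minimum free energy of -11.0 kcal/mol for chr19_35458, -14.1 for chr19_36159, -11.3 for chr2_4784, -14.3 for chr10_22638, -9.90 for chr5_14524 and -11.7 for chr20_37950. For 398 predicted loci that carry a known miRNA name the median was -17.9 kcal/mol, and between 14.1% and 32.7% of them had a weaker duplex than the single tRNA loci. For 3640 predicted loci without a known name the median was -13.4 kcal/mol. These are calculated values for the listed bases alone, with no replicates and no flanking sequence. The compared loci were not matched for the length of their arms, which here was 17 to 22 nt for the mature arms and 16 to 19 nt for the other arms.

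In a miRNA, bases 2 to 8, the seed, choose the targets. The 6 loci had 5 different seeds. chr19_35458 and chr10_22638 shared the seed CCCTGGT, which 1 further row carried, the predicted locus chr5_15723. The seed of chr5_14524 was that of miR-487b-5p, the minor arm of a miRNA of the imprinted DLK1-DIO3 region. Capitals mark the seed:
chr5_14524: aGTGGTTAgtactctgc
oar-miR-487b-5p: aGTGGTTAtccctgtcctgttc

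This miRNA had 20 counts over the 6 libraries, against 726 for chr5_14524. No known miRNA in the table carried the seeds of the other 5 loci.

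Few other rows resembled the loci. No row outside the 6 shared a run of 14 nt with any of them, and 1 row differed by at most 2 bases without gaps, chr8_20538. With at most 3 single-base changes, insertions or deletions, a limit set after the data were seen, there were 2 rows, chr8_20538 and chr5_15723. chr14_28712, which also holds AGTGGTTA, was 4 changes away from chr19_35458 and is named here although it falls outside both rules. These 2 rows are shown because they hold AGTGGTTA, in capitals, and resemble chr19_35458 in part:
chr8_20538: tcccctggtggtccAGTGGTTAg
chr14_28712: tcctggtggcctAGTGGTTAgga

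chr8_20538 had 55, 8 and 28 counts in QHMM, against 35, 33 and 48 counts in STH (log2 fold change -0.41, adjusted p = 0.741 from edgeR over all rows). chr14_28712 had 23, 8 and 19 counts in QHMM, against 60, 21 and 55 counts in STH (log2 fold change -1.39, adjusted p = 0.110). In CPM this was 3.05, 1.44 and 2.55 in QHMM, against 8.20, 3.40 and 6.94 in STH. The breeds thus did not overlap in CPM, as for 8.71% of all names tested with QHMM lower. In both rows QHMM replicate 2 was lowest. chr5_15723 had 61, 36 and 90 counts in QHMM, against 59, 35 and 66 counts in STH, and a log2 fold change of 0.27 (adjusted p = 0.773). This row, which shares the seed of chr19_35458, had values that were interleaved between the breeds.

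The names whose log2 CPM followed chr19_35458 most closely over the 6 libraries were low in counts themselves. Of 1266 names compared, 21 had a Pearson r above 0.9. The 5 highest were chr3_10413 (r = 0.99, mean 1.04 CPM), miR-299b-5p of the DLK1-DIO3 region (r = 0.99, 3.17 CPM), chr11_24631 (r = 0.98, 19.6 CPM), chr15_30311 (r = 0.98, 5.02 CPM) and miR-4285 (r = 0.97, 5.13 CPM). Like chr19_35458 they were lowest in QHMM replicate 2. miR-299b-5p had 4.64, 0.718 and 1.21 CPM in QHMM, against 4.10, 3.56 and 4.79 CPM in STH. None of the 5 passed the test between the breeds (adjusted p = 0.0797 to 0.508 from edgeR). With 6 libraries and this many names, values of r near 1 are a description of these libraries.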

How the data were processed

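The values deposited by the authors are raw counts of reads for each mature sequence, from size-selected small RNA read single-end on an Ion Proton. In the submitters' processing notes stand DESeq and the build Oar_v3.1. How reads were aligned, how loci were predicted and where reads with several matches were counted is not given in the sources used here, so that near-identical rows can hold the same reads. Listed sequences are 12 to 29 nt long, and longer tRNA pieces lie outside this range.

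The members and lists were chosen with earlier results of these data known. Total counts over all rows were 8062231 to 10276427 in QHMM and 8681817 to 11282332 in STH. Each of 10430 names was represented by its row with the most counts. edgeR 4.0.16 in R 4.3.3 compared the breeds (quasi-likelihood test, robust fit, TMM factors, filterByExpr with a minimum count of 10, Benjamini-Hochberg adjusted p under 0.05), giving log2 fold changes of QHMM over STH, with standard errors from the F statistic, for the 1274 names that passed the filter. The method was tested on simulated data. Replicates of a breed differed far beyond sampling noise, with a smallest chi-square per degree of freedom of 80.3. Ratios within a library used a pseudocount of 1 count and exact permutation tests. Alternatives used DESeq2 1.42.0, other factors and filters, a replicate block, other treatment of rows, and each library left out. The rule for named rows took the 6 loci, rows that share a run of at least 14 nt with them (there were 0), the other arms, known names with the same seed, and the 5 names most like chr19_35458. Outside it, chr8_20538 was named as a row with at most 2 ungapped differences, and chr5_15723, chr14_28712 and chr8_19812 were chosen after their values were seen. Duplex energies come from RNAduplex 2.7.2, and the remaining values were computed in Python 3.11.15 (scipy 1.17.1, numpy 2.4.6, pandas 2.3.3).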

Additional observations from a re-analysis of the deposited data

How the results depend on the processing

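The log2 fold changes of the 6 loci were negative in 95 of 95 alternative values. These are refits of the same 6 libraries, with near-identical loci among them, and are not independent results. The range without 1 library was -1.96 to -1.57 for chr5_14524, -1.54 to -0.62 for chr19_35458, -1.35 to -0.63 for chr19_36159, -0.95 to -0.32 for chr2_4784, -1.71 to -0.17 for chr10_22638 and -0.70 to -0.09 for chr20_37950. The number of loci past the threshold, 1, was 0 to 2 with each library left out: 2 without QHMM replicate 1 (with chr19_35458) and 0 without QHMM replicate 2. It was 1 under every other alternative run. The names that differ between the breeds, 28, were 16 to 35 with each library left out, 8 where each library had to hold at least 10 counts, 49 with DESeq2 and 64 without a filter. In the fit without a filter the median of all names was -0.34, beside 0.03. The cause was not tested, apart from the fewer names tested under the stricter filter, which chr10_22638 did not pass. The replicate block gave 26 calls and did not change the call of any of the 6 loci (chr5_14524 adjusted p = 0.0313). Samples of the same number correlated by 0.061, 0.24 and 0.12 in their deviations from the breed means. Each sample was closest to that of its own number, which the design does not state to be a pair. The difference in the log2 ratio to chr19_35458 changed sign for chr19_36159 without STH replicate 2 (-0.23, in a range of -0.23 to 0.40 without 1 library) and for chr10_22638 without STH replicate 1 (-0.26, in a range of -0.26 to 0.64). chr10_22638 had the fewest counts of the 6 loci, 146 over all libraries.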
